A study of Homo sapiens with 4 samples.

Results

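The 9 genes described here encode integrin subunits: the collagen-binding alpha subunits ITGA1, ITGA2, ITGA10 and ITGA11, the laminin-binding subunits ITGA3, ITGA6, ITGA7 and ITGB4, and ITGA9. They were chosen by name, with earlier results of these data known, and make up 9 of the 60721 genes in the count table. All 9 were found by their Ensembl identifiers, and 7 had enough reads to be tested. ITGB4 and ITGA9 have no row in the deposited log2 CPM table and did not pass the filter on low counts. RNA was sequenced from Hs578T, an established human breast carcinoma line. Every culture received GFP, together with either a scrambled control RNA (SCR) or an siRNA against TLN1 (siTLN1), at 1.6 µM, and was collected at 48 h. Each group held 2 libraries, described as biological replicates, and all 4 come from this 1 cell line.

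Integrins are receptors made of an alpha and a beta subunit that hold a cell to its extracellular matrix. The alpha subunit largely sets the ligand, and most alpha subunits described here pair with beta1, which ITGB1 encodes. Talin-1, the product of TLN1, binds the cytoplasmic tails of beta subunits, switches integrins to their active form and ties them to actin. Alpha1, alpha2, alpha10 and alpha11 carry an inserted domain that binds collagen. Alpha3, alpha6 and alpha7 bind laminins, the main glycoproteins of basement membranes. Beta4 pairs with alpha6 alone and anchors hemidesmosomes, the junctions that fix epithelial cells to the basement membrane. Alpha9beta1 binds tenascin-C, osteopontin and VCAM-1 rather than collagen, and its closest relative is alpha4.

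Of the 7 subunits tested, ITGA10 was called higher and ITGA2 lower after siTLN1, where 6.07% of all genes tested were called. Both belong to the collagen-binding class, as do ITGA1 and ITGA11, which were not called. The ITGA10 call was kept under every alternative processing tried. The ITGA2 call was just inside the threshold and was lost under several of them. RefSeq start regions (build GRCh38.p14, 250 bases before to 50 after the start) were found for 5 of the 9 genes; ITGA3, ITGA7, ITGA9 and ITGB4 have no entry. Those of the 2 called genes are shown because these genes moved in opposite directions. They were searched on both strands for the TATA box as TATAAA, the GC box (SP family) as GGGCGG, the AP-1 site as TGACTCA, the CCAAT box as written, and the TEAD site as CATTCCA, and capitals mark each match; no matches overlap. The ITGA10 region lies at chr1:145910001-145910300 on the minus strand, and the ITGA2 region at chr5:52989102-52989401 on the plus strand.
ITGA10: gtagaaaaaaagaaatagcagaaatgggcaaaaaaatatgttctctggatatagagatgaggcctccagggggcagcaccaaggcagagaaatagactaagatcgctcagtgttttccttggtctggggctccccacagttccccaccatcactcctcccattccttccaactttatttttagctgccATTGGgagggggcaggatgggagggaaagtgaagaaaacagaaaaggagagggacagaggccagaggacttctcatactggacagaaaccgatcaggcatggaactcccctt
ITGA2: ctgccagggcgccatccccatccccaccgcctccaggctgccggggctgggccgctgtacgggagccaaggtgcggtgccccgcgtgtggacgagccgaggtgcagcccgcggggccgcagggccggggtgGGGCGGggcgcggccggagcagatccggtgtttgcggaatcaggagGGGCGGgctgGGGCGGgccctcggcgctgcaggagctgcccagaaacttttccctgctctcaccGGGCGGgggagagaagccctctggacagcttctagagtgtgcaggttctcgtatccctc
The ITGA2 region is 72.7% G and C, above 85.7% of the 35116 regions in the table, with 27 CG pairs and copies of GGGCGG, which 45.0% of all regions hold. The ITGA10 region is 48.7% G and C, above 28.0% of all regions, with 2 CG pairs and a CCAAT motif read on the other strand (ATTGG), which 34.6% of all regions hold. A match describes the letters only. Of the other genes with an entry, the ITGA11 region is 72.0% G and C with 29 CG pairs, and the ITGA1 region is 61.7% with 19. Neither holds any of the motifs searched. ITGA6, which was not called, has 2 entries, of 53.0% and 72.0%. Both hold GGGCGG, and the first also holds TATAAA on the other strand, which 11.5% of all regions hold.

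The SCR libraries held 31854322 and 34794346 counts and the siTLN1 libraries 36987264 and 46353297. TLN1 stood at 868 and 874 CPM (counts relative to the library total, scaled between libraries) in SCR and at 51.9 and 44.8 CPM in siTLN1, so 5.55% of the control level was left. edgeR's quasi-likelihood test called 980 of 16137 genes (6.07%) at a threshold of 0.05 on the adjusted p, which is the background for every count below. The labels call the cells epithelial, yet 5 of 9 epithelial markers, EPCAM among them, were below 1 CPM in every library. All 7 mesenchymal markers were above 1 CPM, and KRT14 among the former (adjusted p 9.77e-05) and CDH2 among the latter (adjusted p 2.45e-05) were called lower after siTLN1. The summed epithelial markers ran from 232 to 280 CPM in SCR and from 198 to 211 CPM in siTLN1. KRT14 in that sum went from 109 and 127 CPM in SCR to 66.2 and 68.1 CPM in siTLN1. KRT18 had 104 and 131 CPM in SCR against 115 and 124 CPM in siTLN1, and was not called (adjusted p 0.939). The summed mesenchymal markers ran from 28407 to 31104 CPM in SCR and from 31620 to 36949 CPM in siTLN1. Most of the mesenchymal sum is FN1, which was not called (adjusted p 0.343). Without FN1 that sum was 4807 to 4854 CPM in SCR and 4580 to 4660 CPM in siTLN1, so its direction turned. CDH2 in that sum went from 569 and 535 CPM in SCR to 303 and 293 CPM in siTLN1. The rest of it, VIM, ZEB1, ZEB2, TWIST1 and SNAI2, was not called, so the turn does not describe the mesenchymal markers as a set. The 4 fibroblast markers summed to 20542 to 21537 CPM in SCR and 18079 to 20456 CPM in siTLN1, and DCN among them was called higher (log2 fold change 0.43, adjusted p 0.0103). The endothelial and leukocyte markers summed to at most 4.72 and 1.54 CPM in any library. The part of any of these in the results below was not tested. In RNA from whole cultures, fewer cells that use a gene and less RNA per cell cannot be told apart.

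Levels were compared between genes per kb of exon. ITGA11, the collagen receptor subunit best known from fibroblasts, was the most abundant, with levels of 74.8 and 74.0 CPM per kb in SCR and 72.3 and 62.2 in siTLN1. ITGA3 followed at 30.2 and 31.2 CPM per kb in SCR and 28.7 and 26.0 in siTLN1. ITGA2 came next at 16.3 and 14.4 CPM per kb in SCR and 12.4 and 11.9 in siTLN1. In both groups these 3 levels were separated from each other and from all lower ones.

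The middle of the order held ITGA6, ITGA10 and ITGA1. In SCR, ITGA6 at 3.17 and 3.14 CPM per kb could not be separated from ITGA10 at 2.36 and 3.25, whose range reaches past both. ITGA1 was below them at 2.34 and 1.85 CPM per kb. In siTLN1, ITGA10 stood at 4.60 and 5.28 CPM per kb, above ITGA6 at 3.19 and 3.24 and above ITGA1 at 2.33 and 1.92. With the longest annotated transcript in place of exon length, ITGA1 came to 3.60 CPM per kb on average in SCR and took the place above ITGA10 (3.32), with overlapping ranges. The bottom of the order was ITGA7, ITGB4 and ITGA9, each under 0.2 CPM per kb in every library. Measured against all tested genes in SCR, the level of ITGA11 was above 97.2% of them, that of ITGA6 above 49.96% and that of ITGA7 above 4.68%.

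**Figure D1:**
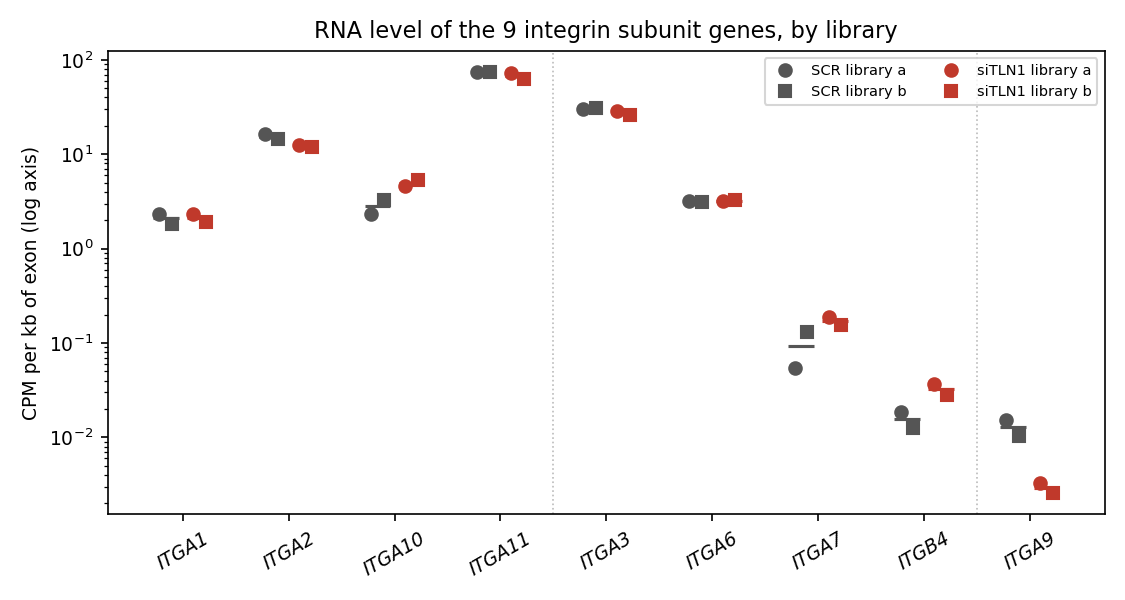
RNA level in CPM per kb of exon (log axis) of each gene in the SCR libraries (grey) and the siTLN1 libraries (red), with circles for library a, squares for library b and lines at group means. ITGA11, ITGA3 and ITGA2 lie above 10 in every library, and ITGA7, ITGB4 and ITGA9 lie below 0.2.

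Summed over the 8 alpha subunits, the level was 129 and 128 CPM per kb in SCR and 124 and 111 in siTLN1. The 4 collagen-binding subunits supplied 73.6% ± 0.770 (SD, n = 2) of it in SCR and 73.8% ± 0.451 (SD, n = 2) in siTLN1, a difference smaller than the spread between libraries. ITGA11 alone supplied 57.9% and 57.8% in SCR and 58.5% and 56.2% in siTLN1. All shares here depend on exon length, which the SDs do not cover. Per kb of exon, ITGA11 averaged 74.4 CPM and ITGA3 30.7 CPM in SCR. Per kb of the longest annotated transcript, they averaged 79.3 and 54.9 CPM, which makes the part of ITGA3 larger. Of the sum over the 8 alpha subunits, ITGA10 went from 1.83% and 2.54% in SCR to 3.72% and 4.77% in siTLN1. ITGA2 went from 12.6% and 11.2% of that sum to 10.0% and 10.7%. The ratio of ITGA11 to ITGA10 went from 31.7 and 22.8 in SCR to 15.7 and 11.8 in siTLN1. Against all 12 alpha subunits able to pair with beta1, which adds ITGA4, ITGA5, ITGA8 and ITGAV, the 8 supplied 34.6% and 34.7% in SCR and 34.0% and 33.6% in siTLN1.

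**Figure D2:**
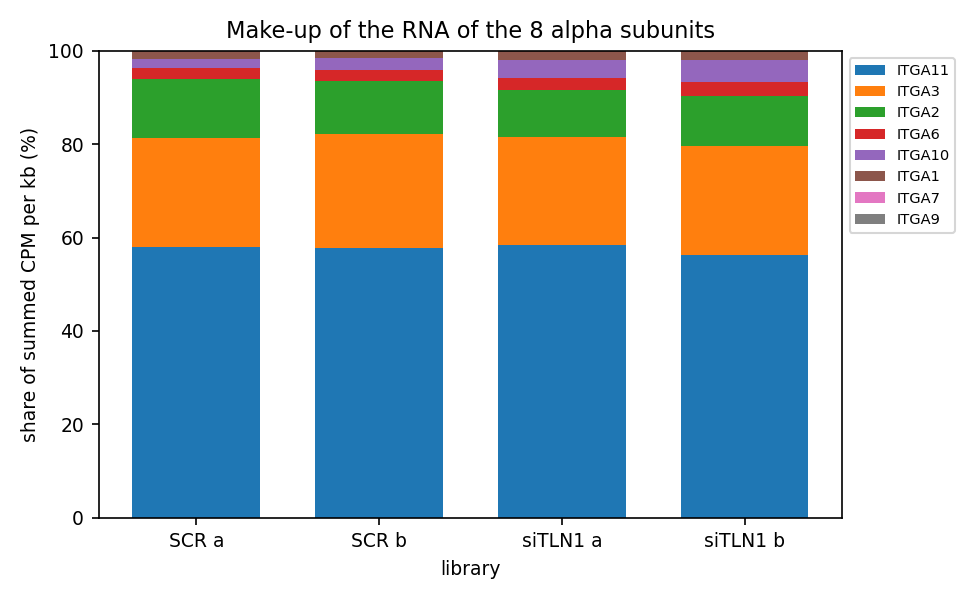
Share in percent of each alpha subunit in the summed CPM per kb of all 8, in 1 bar per library. ITGA11 fills 56.2% to 58.5% of every bar, and the ITGA10 band is widest in the siTLN1 libraries, at 3.72% and 4.77%.

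Of the 7 tested genes, 2 passed the threshold, against a background of 6.07% of all genes. The median log2 fold change of the 7 was 0.025, with 4 higher and 3 lower, and that of all genes tested was 0.0033. All 4 libraries of each of the 7 exceeded the filter's cutoff of 0.279 CPM, so none entered the test through 1 group alone. The libraries of the groups did not overlap for 6 of the 7, but 48.4% of all genes tested have groups that do not overlap, so this count alone separates little with 2 libraries a group.

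**Figure D3:**
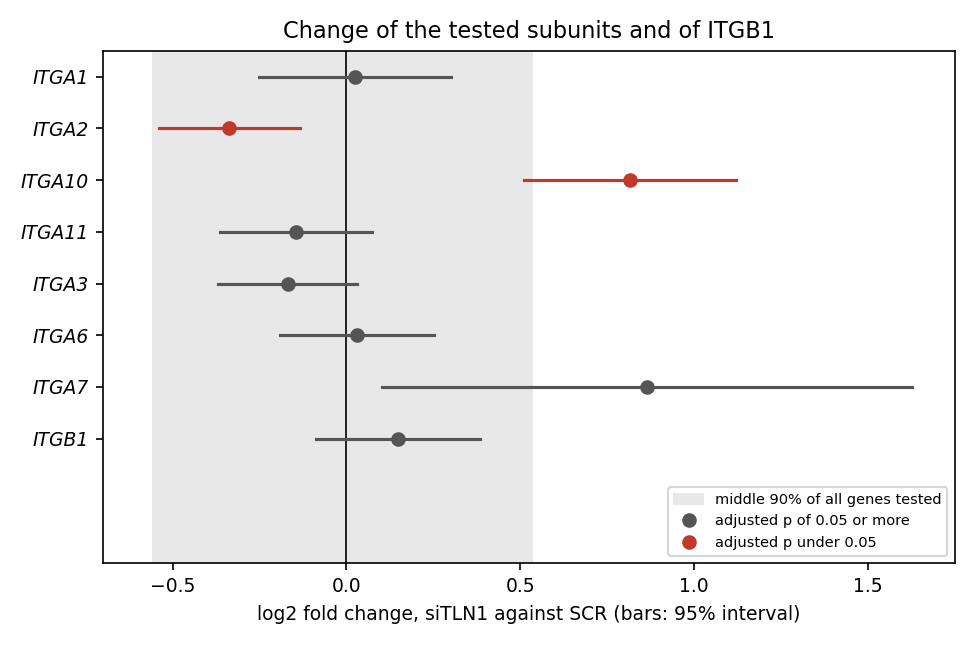
Log2 fold change of siTLN1 against SCR with its 95% interval for the 7 tested genes and ITGB1, with the middle 90% of all genes tested (−0.56 to 0.54) shaded. ITGA10 lies to the right of the shading and ITGA2 to the left of 0 within it, both with an adjusted p under 0.05, whereas the interval of ITGA7 is the widest.

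ITGA10 (ENSG00000143127.13; GRCh38, chromosome 1, 145891208 to 145910111, minus strand) encodes the alpha10 subunit, a collagen receptor subunit best known from cartilage. Reads counted for it numbered 468 and 707 in SCR and 1046 and 1548 in siTLN1, or 14.7 and 20.3 CPM against 28.7 and 32.9 CPM. Both siTLN1 libraries were above both SCR libraries, and library a was the lower of its group each time. The SCR mean was 17.5 ± 3.94 CPM and the siTLN1 mean 30.8 ± 2.97 CPM (SD, n = 2 each). The log2 fold change was 0.82 ± 0.14 (SE), a 1.76-fold rise with a 95% interval of 1.43 to 2.17, and the adjusted p was 0.00423. The size of this change was above that of 96.1% of all genes tested. It passed the threshold under all 14 alternatives, with log2 fold changes from 0.61 without SCR library a to 1.07 without SCR library b. An unnamed gene on the opposite strand shares 1.96% of its exon bases.

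ITGA2 (ENSG00000164171.11; chromosome 5, 52989340 to 53094779, plus strand) encodes alpha2, which with beta1 forms a receptor for fibrillar collagens. It had 129 and 114 CPM in SCR and 98.0 and 93.8 CPM in siTLN1. Both siTLN1 libraries were below both SCR libraries. The SCR mean was 121 ± 10.6 CPM and the siTLN1 mean 95.9 ± 2.97 CPM (SD, n = 2 each). The log2 fold change was −0.34 ± 0.096 (SE). The fold was 0.792 with a 95% interval of 0.688 to 0.911, and the adjusted p of 0.0473 was just inside the threshold. The call was lost without SCR library a (−0.24), without siTLN1 library a (−0.37) and without siTLN1 library b (−0.30). Among the unpaired alternatives on all 4 libraries, the adjusted p ran from 0.0119, with the length trend removed, to 0.112. The call was also lost when low counts were not filtered (adjusted p 0.112) and in limma-trend, run on the log2 CPM table (0.0507). The direction was the same under all 14 alternatives, but with groups that do not overlap, leaving out 1 library could hardly turn it.

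ITGA11 (ENSG00000137809.17; chromosome 15, 68296532 to 68432163, minus strand) had 813 and 804 CPM in SCR and 786 and 676 CPM in siTLN1. The siTLN1 libraries were lower, 1 of them by little. Its log2 fold change of −0.15 ± 0.10 (SE) did not pass (adjusted p 0.482), and the 95% interval of the fold was 0.777 to 1.05. A change of 1.5-fold in either direction lies outside that interval.

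ITGA1 (ENSG00000213949.10; chromosome 5, 52787916 to 52959209, plus strand) encodes alpha1, which favours the collagen IV of basement membranes. Its values were 43.3 and 34.2 CPM in SCR and 43.3 and 35.7 CPM in siTLN1. The groups overlapped, and library a was the higher in each. The log2 fold change was 0.025 ± 0.13 (SE) (adjusted p 0.946), and the 95% interval of the fold was 0.841 to 1.23. The sign turned when SCR library b (−0.14) or siTLN1 library a (−0.12) was left out. Other genes share 13.2% of the exon bases of ITGA1, among them PELO on the same strand and ITGA2-AS1 on the opposite one, so reads there may not have been counted for it.

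Among the laminin-binding subunits, none passed the threshold in edgeR's test on all 4 libraries. ITGA3 (ENSG00000005884.18; chromosome 17, 50055968 to 50090481, plus strand) encodes alpha3, which binds laminins together with beta1. Its values were 296 and 306 CPM in SCR and 281 and 255 CPM in siTLN1. The groups did not overlap, with the siTLN1 libraries lower. The log2 fold change was −0.17 ± 0.095 (SE) (adjusted p 0.349), and the 95% interval of the fold was 0.775 to 1.02.

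ITGA6 (ENSG00000091409.15; chromosome 2, 172427354 to 172506459, plus strand) encodes alpha6, which pairs with either beta1 or beta4. It varied least, with 21.3 and 21.0 CPM in SCR and 21.4 and 21.8 CPM in siTLN1. The log2 fold change was 0.030 ± 0.10 (SE) (adjusted p 0.918), and the 95% interval of the fold was 0.876 to 1.19. Genes on the opposite strand share 5.23% of its exon bases. The A and B forms of the alpha3, alpha6 and alpha7 tails, which arise by alternative splicing, cannot be told apart in counts per gene.

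ITGA7 (ENSG00000135424.17; chromosome 12, 55684568 to 55716043, minus strand) encodes the laminin receptor subunit best known from muscle. It had 11 and 29 raw counts in SCR and 44 and 47 in siTLN1, or 0.346 and 0.833 CPM against 1.21 and 1.0 CPM. Both siTLN1 libraries were above both SCR libraries, but the SCR libraries differed from each other by more than the siTLN1 ones did. Its log2 fold change, 0.87 ± 0.36 (SE), was near that of ITGA10 but did not pass (adjusted p 0.185), and the 95% interval of the fold was 1.07 to 3.09. Without SCR library b the value was 1.65 and passed (adjusted p 0.0226), and without SCR library a it was 0.39 (adjusted p 0.649).

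ITGB4 (ENSG00000132470.14; chromosome 17, 75721328 to 75757818, plus strand), the hemidesmosome beta subunit, had 4 and 3 counts in SCR and 9 and 9 in siTLN1. These are at most 0.247 CPM in any library, and no library reached the cutoff of 0.279 CPM. Taking the counts of each group together, 7 against 18, the ratio of siTLN1 to SCR was 2.05 with an exact Poisson interval of 0.819 to 5.82, which covers counting error only and includes 1. The level of ITGA6 per kb was 170 and 246 times that of ITGB4 in SCR and 87.3 and 115 times in siTLN1.

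ITGA9 (ENSG00000144668.12; chromosome 3, 37452115 to 37823507, plus strand) had 4 and 3 counts in SCR and 1 and 1 in siTLN1. The ratio of siTLN1 to SCR was 0.228 from 2 against 7 counts, with an exact Poisson interval of 0.0231 to 1.199. With no filter on low counts, edgeR gave ITGB4 an adjusted p of 0.603 and ITGA9 one of 0.470. Of the exon bases of ITGA9, 9.23% are shared with ITGA9-AS1 on the opposite strand. A difference between the groups was not detectable for either gene at this depth.

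**Figure D4:**
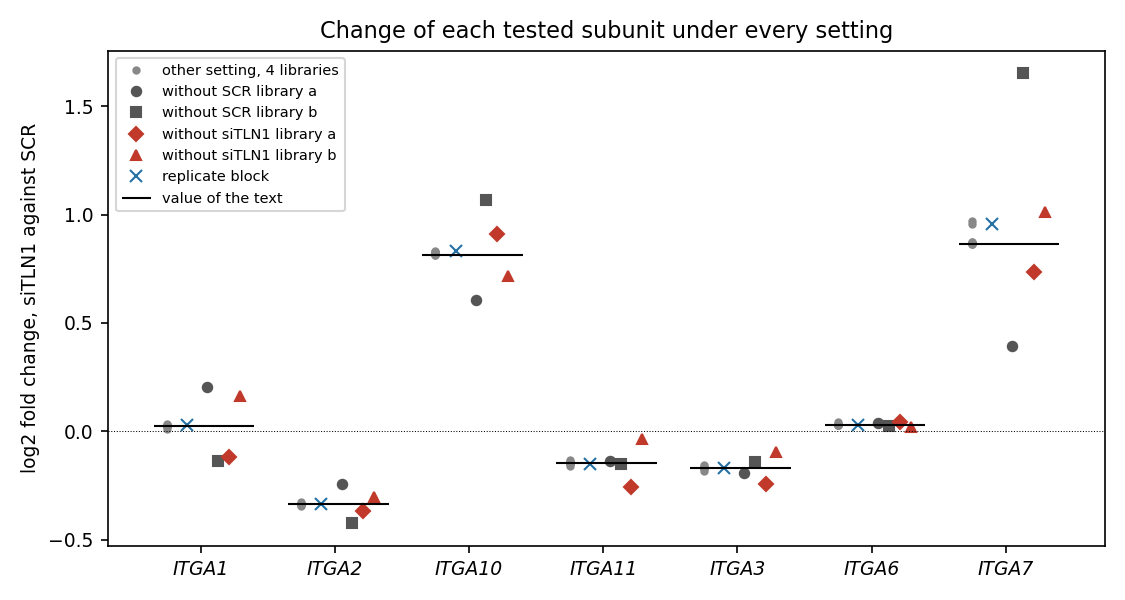
Log2 fold change of siTLN1 against SCR for each tested gene under every setting, with a line at the value of the text, grey dots for other settings on 4 libraries, a cross for the replicate block and large symbols for fits without 1 library. ITGA10 ranges from 0.61 to 1.07 and stays above 0, ITGA1 falls on both sides of 0, and ITGA7 ranges from 0.39 to 1.65.

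ITGB1, the common partner of the 8 alpha subunits, had 258 and 224 CPM per kb in SCR and 284 and 250 in siTLN1. These ranges overlapped, and its log2 fold change was 0.15 ± 0.11 (SE) (adjusted p 0.514). Of the 9 tested genes among the other integrin subunits, 1 was higher and 0 were lower at an adjusted p under 0.05. That gene was ITGB8, which pairs with alphaV, at 6.98 and 6.35 CPM in SCR against 14.8 and 9.53 CPM in siTLN1 (log2 fold change 0.86, adjusted p 0.0191). Its call was lost without siTLN1 library a (0.52, adjusted p 0.175).

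The ligands were measured in the same libraries. Of 14 collagen chains tested, 0 were higher and 1 was lower, COL5A1, which encodes a chain of the fibrillar collagen V. Its log2 fold change was −0.42 (adjusted p 0.0290), and the call was lost without SCR library a (−0.46, adjusted p 0.0529), without SCR library b (−0.37, adjusted p 0.181) and without siTLN1 library b (−0.31, adjusted p 0.223). The median of the collagen list was −0.020. Of 9 laminin chains tested, 1 was higher and 0 were lower. LAMA2, the alpha chain of muscle and nerve basement membranes, had 26.2 and 21.0 CPM in SCR and 43.7 and 34.2 CPM in siTLN1 (log2 fold change 0.72, adjusted p 0.00756), and its adjusted p was 0.0694 without siTLN1 library a. The median of the laminin list was −0.24, with 6 of the 9 at values below 0. None of 4 tested alpha9beta1 ligands passed in edgeR's test, and fibronectin (FN1), the most abundant, had a log2 fold change of 0.25 (adjusted p 0.343).

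Of the collagen and laminin receptors that are not integrins, 4 were tested, and 1 rose and 1 fell. DDR1, a receptor tyrosine kinase that collagen activates, had 45.8 and 47.7 CPM in SCR and 24.6 and 23.9 CPM in siTLN1. Its groups were far apart compared with the libraries within them, with a log2 fold change of −0.95 ± 0.099 (SE) at an adjusted p of 1.88e-05. It passed under all 14 alternatives, with values from −0.98 to −0.92. DDR2, its close relative, had a log2 fold change of 0.20 (adjusted p 0.283). BCAM, a receptor for the laminin alpha5 chain, was higher at 0.39 (adjusted p 0.0474). That call was lost without SCR library a (0.24, adjusted p 0.297), without siTLN1 library a (0.37, adjusted p 0.253) and without siTLN1 library b (0.42, adjusted p 0.0723).

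Among 8 hemidesmosome and tetraspanin partners, 0 were higher and 1 was lower, COL17A1, the transmembrane collagen of hemidesmosomes. It had 5.54 and 4.85 CPM in SCR and 3.19 and 2.94 CPM in siTLN1 (log2 fold change −0.76, adjusted p 0.0118). Its adjusted p was 0.0563 without siTLN1 library a and 0.0672 without siTLN1 library b. CD151, the tetraspanin that binds the laminin-binding integrins, had a log2 fold change of −0.18 and did not pass (adjusted p 0.348). Among 8 genes for processing, tail binding and trafficking of alpha subunits, 0 were higher and 1 was lower, CIB1, a calcium-binding protein that binds integrin tails. Its log2 fold change was −0.59 (adjusted p 0.00432), and −0.47 without siTLN1 library a (adjusted p 0.101). FURIN, the protease that cleaves the alpha3 and alpha6 precursors, had a value of −0.13 (adjusted p 0.485). DDR2, CD151 and FURIN were picked out for their known roles after their values were seen.

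**Figure D5:**
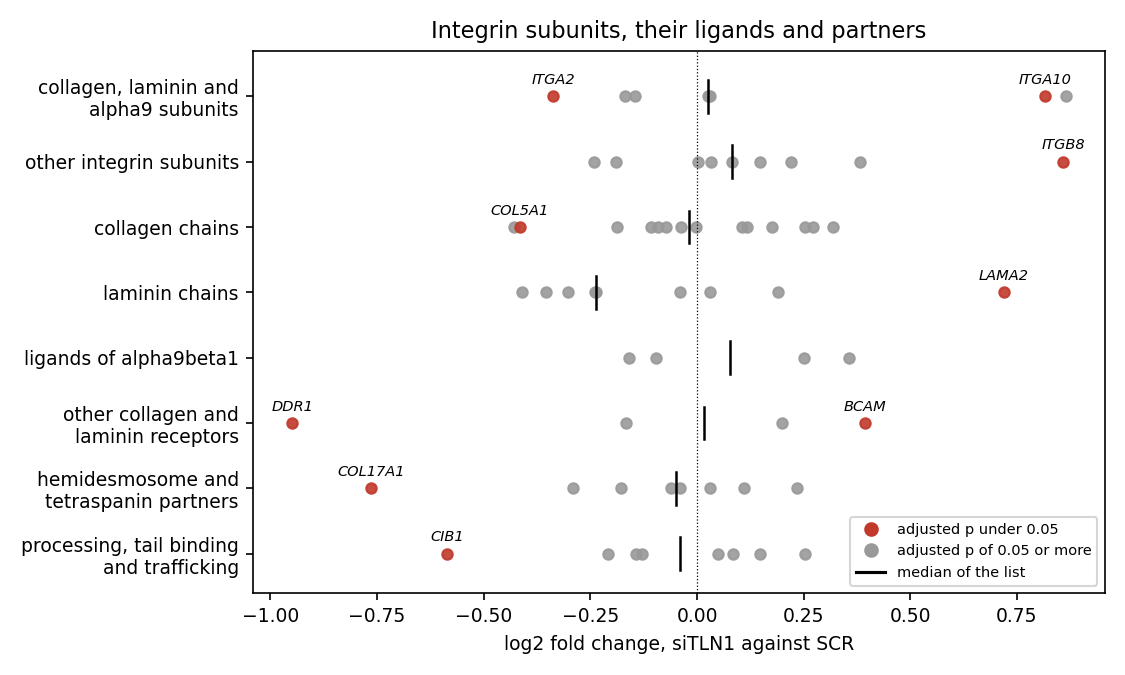
Log2 fold change of siTLN1 against SCR for the tested genes of each list, in red with a name where the adjusted p is under 0.05, with a bar at each list's median. ITGA10 at 0.82, ITGB8 at 0.86 and ITGA7 at 0.87, which was not called, lie at the right, and DDR1 at −0.95 lies farthest to the left.

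The genes whose centred log2 CPM lay nearest to ITGA10 over the 4 libraries were FLVCR2, MEST and LMO2, at Euclidean distances of 0.15, 0.15 and 0.17 log2 units among 10429 candidates. For ITGA2 they were TTC8, STK35 and ZNF605, at 0.020, 0.020 and 0.025. With 4 libraries in 2 groups, such distances describe the libraries and no more.

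One sequence word in ITGA2 is shown as a description. The word was chosen with the fold changes of these libraries known, so the shares below restate that choice and support nothing about ITGA2. Leaving out TLN1, 975 genes, or 7.79% of those whose 3′ UTR is 100 bases or longer, hold the 7-base word GACAACA there. Their median log2 fold change was −0.098, with 159 (16.3%) called lower and 21 (2.15%) called higher. Without the word, the median of 11549 genes was 0.013, with 3.45% called lower and 2.62% called higher. Genes with the word have longer 3′ UTRs, a median of 2975 against 1004 bases, and the values were also taken by UTR length. Lengths still differed within each class. The medians were 3415.5 with the word against 2169 bases without it in the longer class, and 623 against 424 in the shorter. The ITGA2 3′ UTR searched has 4180 bases, and 12.7% of genes in the longer class hold the word. With 3′ UTRs of 1000 bases or more, the medians were −0.075 with the word and 0.027 without, and 14.4% and 3.59% were called lower. With shorter 3′ UTRs, the medians were −0.26 for the 135 genes with the word and −0.00088 without, and 28.1% and 3.32% were called lower. ITGA2 is the only member with a copy in its 3′ UTR in the transcript searched, starting at base 1882 of the UTR, with the word in capitals here.
ITGA2: actttgtagttGACAACAcaaaacaaaca
ITGA10, ITGA1, ITGA6, ITGA7 and ITGB4 hold the word in neither the coding sequence nor the 3′ UTR of the transcript searched. The coding sequences hold 2 copies in ITGA11, 1 in ITGA3 and 3 in ITGA9, and 1 in TLN1. The sequence of the siRNA is not given in the sources used here, and the part of the word in the ITGA2 value was not tested.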

How the data were processed

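Polyadenylated RNA of 4 Hs578T cultures was sequenced, 2 per group, per the labels. The deposited counts are whole reads per gene. Per the file headers, featureCounts 2.0.0 ran on read pairs against GENCODE 33 (GRCh38), and its command sets neither strand nor the handling of reads that overlap several genes, although the labels name a stranded kit. The submitters' processing notes also name STAR 2.7.9a and edgeR 3.34.1. Exon length in bases, a unit other than counts, is a column of the same deposited table. The authors also deposited log2 CPM for 16137 genes, and how that table was made is not given in the sources used here. After sorting within each group, 100% of its values matched, to 6 decimals, the log2 CPM that edgeR gives with TMM scaling. Count columns name a group but match no replicate number of the labels, so their libraries are called a and b, after a number in the column names that recurs in both groups. By value, library a goes with replicate 1 and library b with replicate 2 for each tested member. For ITGA10 in SCR, log2 CPM of 3.89 and 4.35 stands beside 14.7 and 20.3 CPM. No column was left unmapped (0), and 0 rows name no gene.

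Gene identifiers without version were matched to symbols, which 14890 of the 16137 tested genes have. The test was edgeR 4.0.16 (R 4.3.3) with filterByExpr (minimum count 10, minimum total 15), TMM scaling, glmQLFit (robust) and glmQLFTest, Benjamini-Hochberg adjustment over all genes tested and a threshold of 0.05. Standard errors and 95% intervals follow from that fit, and SDs are over 2 libraries. CPM values are TMM-scaled. CPM per kb divides them by the deposited exon length. DESeq2 1.42.0, limma 3.58.1 (voom, and trend on the deposited log2 CPM), other scalings and filters, the legacy quasi-likelihood method, removal of each library's trend with exon length (loess span 0.3), each library left out and a replicate block were the alternatives. The test was run on simulated counts with the same dispersion for every gene and changes of a fixed size in abundant genes only. That run does not bear on low counts or on changes of other sizes. Sequences came from RefSeq promoters (GRCh38.p14) and GENCODE 29 transcripts, taking for each gene the transcript whose coding sequence is longest, from those with a 3′ UTR of 100 bases or more where any exist. Figures used Python 3.11.15 and matplotlib 3.10.9.

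The members, gene lists, motifs and the 7-base word were chosen with earlier results of these data known. Named genes are the 9 members, TLN1, ITGB1, in each list up to 3 called genes, lowest p first, the most abundant gene per kb where a list had none, and the 3 genes nearest each called member in centred log2 CPM. DDR2, CD151, FURIN and the called cell type markers are named outside this rule, after their values were seen. One laminin chain is not reported here and was left out of its list.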

Additional observations from a re-analysis of the deposited data

How the results depend on the processing

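Of 14 alternatives, the direction of ITGA10, ITGA2, ITGA11, ITGA3, ITGA6 and ITGB1 was kept in all of them, and that of ITGA7 in the 13 that gave it an adjusted p. For all of these but ITGB1 the groups did not overlap, so leaving out 1 library could hardly turn the sign. The remaining alternatives use the same 4 libraries, so a kept direction adds little. ITGA1 alone reversed, at −0.14 with SCR library b left out and −0.12 with siTLN1 library a left out, and ran from −0.14 to 0.21 over the fits without 1 library. TLN1 passed throughout, from −4.28 to −4.07 without 1 library. The number of called members was 1 with no filter on low counts and 1 in limma-trend, run on the log2 CPM table, and from 1 to 3 when 1 library was left out. Changed genes numbered 980, 1523 with the length trend removed, and from 347 (without siTLN1 library a) to 1116 (without SCR library a). When a fit leaves 1 library in a group, that library is assumed to vary like the other group. Laminin chains called numbered 1, against 2 with total counts only, with a mean of at least 10 counts, with the legacy method and with DESeq2. With the length trend removed, 3 laminin chains and 2 hemidesmosome or tetraspanin genes passed, and 1 other receptor passed with no filter. Without 1 library, counts ran from 0 to 2 for other integrin subunits and for collagen chains, from 0 to 2 for laminin chains, from 1 to 2 for other receptors, and from 0 to 1 for each of the last 2 lists. The cause of these differences was not tested. DESeq2 gave no adjusted p for ITGA7.

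Whether the numbered replicates are pairs was examined. Differences between replicates 1 and 2 correlated between the groups at 0.19 across genes and at 0.53 among genes of 5 CPM upward. With 2 pairs and no label that states a shared preparation, they were not used as pairs. With the replicate block, limma-trend called 3650 genes and 4 members (ITGA2, ITGA10, ITGA3 and ITGA7), with 3 other integrin subunits, 3 collagen chains, 6 laminin chains, 4 other receptors, 4 hemidesmosome or tetraspanin genes and 3 processing genes. Of the limits, low counts bear on ITGA7, ITGB4 and ITGA9, and every value rests on 2 libraries per group. How far depth or the number of libraries sets the error of the abundant members was not tested.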
